A study of Mus musculus with 10 samples.

Results

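The genes of the Nodal signalling pathway and of the mesendoderm programme it induces described here, Nodal, Lefty1, Lefty2, Tdgf1, Foxh1, Eomes, Mixl1 and Gsc, were followed across mouse embryonic stem cells (mESCs) that lack a subunit of MiDAC, the mitotic deacetylase complex. They were chosen by symbol, not by a rule on their values, but with earlier results of these data known. They make up 8 of the 34591 genes listed in the RNA-seq table. MiDAC is a histone deacetylase complex in which HDAC1 or HDAC2 is held by the scaffold ELMSAN1 and the smaller subunit DNTTIP1. For mESCs the paper found no binding of HDAC2 to either subunit and proposes that HDAC1 alone is the deacetylase there. Wild-type (WT) cells were the male Bruce-4 line of C57/BL6 origin, and the knockout (KO) clones were made from it with CRISPR/Cas9 aimed at exon 2 of either gene. Clones D2A7 and D1E6 are the Dnttip1 KO lines and clones E2E8 and E2G7 the Elmsan1 KO lines, each grown from a single sorted cell. Each of the 5 lines gave 2 total RNA libraries, so a KO group holds 4 libraries of 2 clones and WT holds 2 libraries of 1 line. All lines were kept undifferentiated in serum-free 2iL medium with LIF, the GSK3β inhibitor CHIR 99021 and the MEK inhibitor PD 0325901. Nothing in the labels ties the libraries of a line to separate cultures, so p-values measure the spread between libraries, and because WT is 1 line, loss of a subunit and differences between cell lines cannot be told apart.

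Nodal is a secreted ligand of the TGF-β family. It binds activin receptors (Acvr1b and Acvr2a or Acvr2b) together with the co-receptor Cripto, which Tdgf1 encodes, and the receptors phosphorylate SMAD2 and SMAD3, which enter the nucleus with SMAD4. There FOXH1 brings the SMADs to target genes, among them Nodal itself and Lefty1 and Lefty2, whose secreted products block Nodal and so close a negative feedback loop. At gastrulation strong Nodal signalling induces mesendoderm, the common precursor of mesoderm and endoderm, with the T-box factor EOMES and the homeodomain factors MIXL1 and GSC. mESCs are pluripotent cells in which the upper part of the pathway is known to be active while mesendoderm genes are low.

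Promoter sequences in RefSeq, taken from 250 bases before to 50 bases after the start of transcription, were matched for 4 of the 8 genes (Nodal, Tdgf1, Eomes and Gsc) and each was found once in NCBIM37, the build of the deposited values. The promoters of Gsc and Eomes are shown because these are the genes that passed the test in Elmsan1 KO, in opposite directions. Gsc is on the minus strand at chr12:105711397-105711696 and Eomes on the plus strand at chr9:118387057-118387356, and capitals mark CpG dinucleotides.
Gsc: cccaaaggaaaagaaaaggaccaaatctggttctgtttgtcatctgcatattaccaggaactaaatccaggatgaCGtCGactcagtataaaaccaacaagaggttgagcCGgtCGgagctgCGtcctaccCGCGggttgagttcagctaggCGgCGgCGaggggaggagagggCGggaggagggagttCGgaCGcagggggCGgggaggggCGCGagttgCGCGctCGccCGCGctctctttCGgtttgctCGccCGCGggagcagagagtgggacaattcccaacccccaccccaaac
Eomes: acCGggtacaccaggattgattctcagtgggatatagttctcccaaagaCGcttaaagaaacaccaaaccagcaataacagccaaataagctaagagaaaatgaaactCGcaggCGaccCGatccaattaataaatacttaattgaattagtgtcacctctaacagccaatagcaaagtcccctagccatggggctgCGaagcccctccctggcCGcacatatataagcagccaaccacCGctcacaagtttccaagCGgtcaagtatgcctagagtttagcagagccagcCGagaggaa

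The Gsc window held 25 CpG dinucleotides at 60.3% G and C, and the Eomes window held 10 at 47.3%, against medians of 7 and 52.7% over 32851 mouse promoters of the same length. The windows of Nodal and Tdgf1 held 5 and 7 CpG dinucleotides. A search on both strands for the FOXH1 motif AATCCACA, the T-box motif TCACACCT, the bicoid-type homeodomain motif TAATCC and the SMAD palindrome GTCTAGAC found no match in any of the 4 windows. These motifs are in 0.855%, 1.28%, 7.06% and 0.213% of all promoters. The TATA box letters TATAAA, read on the gene's strand, were found in the Gsc window, starting at position -164 from the RefSeq start, and in 8.32% of all promoters. Only these exact letters were searched. The Eomes window had no exact match but holds the letters TATATAAG, which the search did not count. Whether either stretch works as a TATA box was not tested. The entries for Lefty1, Lefty2, Foxh1 and Mixl1 were not matched. In NCBIM37, Nodal lies at chr10:60880720-60888086 on the plus strand, and Tdgf1 at chr9:110842114-110848662, Foxh1 at chr15:76498714-76500378 and Mixl1 at chr1:182623174-182627165 on the minus strand.

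Levels were given as FPKM, fragment counts scaled to exon length and library size, a unit that allows comparison between genes. The low values were whole multiples of a constant step in each library, which gave 30182379 to 84291856 fragments in genes per library. WT had the 2 shallowest libraries, and the libraries of the 4 clones started at 47058218. Transcripts of Dnttip1 were at 8.15 to 8.43 FPKM in WT, 4.56 to 4.57 in D2A7 and 2.59 to 2.63 in D1E6, whereas Elmsan1 was at 5.39 to 5.53 in WT and 4.62 to 5.18 in the Elmsan1 KO libraries. A lesion in exon 2 need not remove the transcript, so these levels do not test the loss of the protein. The paper reports from western blots that the targeted protein was absent in the clones of each KO. The defining markers of mESCs were present in every line, and the 7 listed (among them Pou5f1, Sox2 and Nanog) summed to 978 to 1210 FPKM. The 6 trophoblast markers summed to at most 1.86 FPKM and the 5 fibroblast markers to at most 0.570. The 4 neural markers, nearly all Tubb3, summed to 54.4 to 58.3 FPKM in WT, 71.4 to 73.6 in D2A7, 86.4 to 86.6 in D1E6, 44.6 to 46.7 in E2E8 and 87.3 to 87.5 in E2G7, and the 6 primitive endoderm markers to 1.06 to 1.10 in WT, 1.45 to 1.55 in D2A7 and 0.687 to 0.867 in the other clones.

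In WT the 8 genes spanned a wide range. Lefty2 and Tdgf1 were the most abundant, at 301 ± 7.46 and 299 ± 6.15 FPKM (mean ± SD, n = 2), and their libraries overlapped. Lefty1 (54.8 ± 2.03), Nodal (48.3 ± 1.86) and Foxh1 (26.5 ± 1.34) followed, with no overlap between them. Gsc stood at 3.96 ± 0.240 FPKM, Eomes at 1.84 ± 0.0932 and Mixl1 at 0.276 ± 0.0654. The genes of the ligand, its antagonists, the co-receptor and the DNA-binding partner of the SMADs were at 25.6 FPKM or more in every library of the study, and the 3 mesendoderm factors at 4.17 or less.

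**Figure D1:**
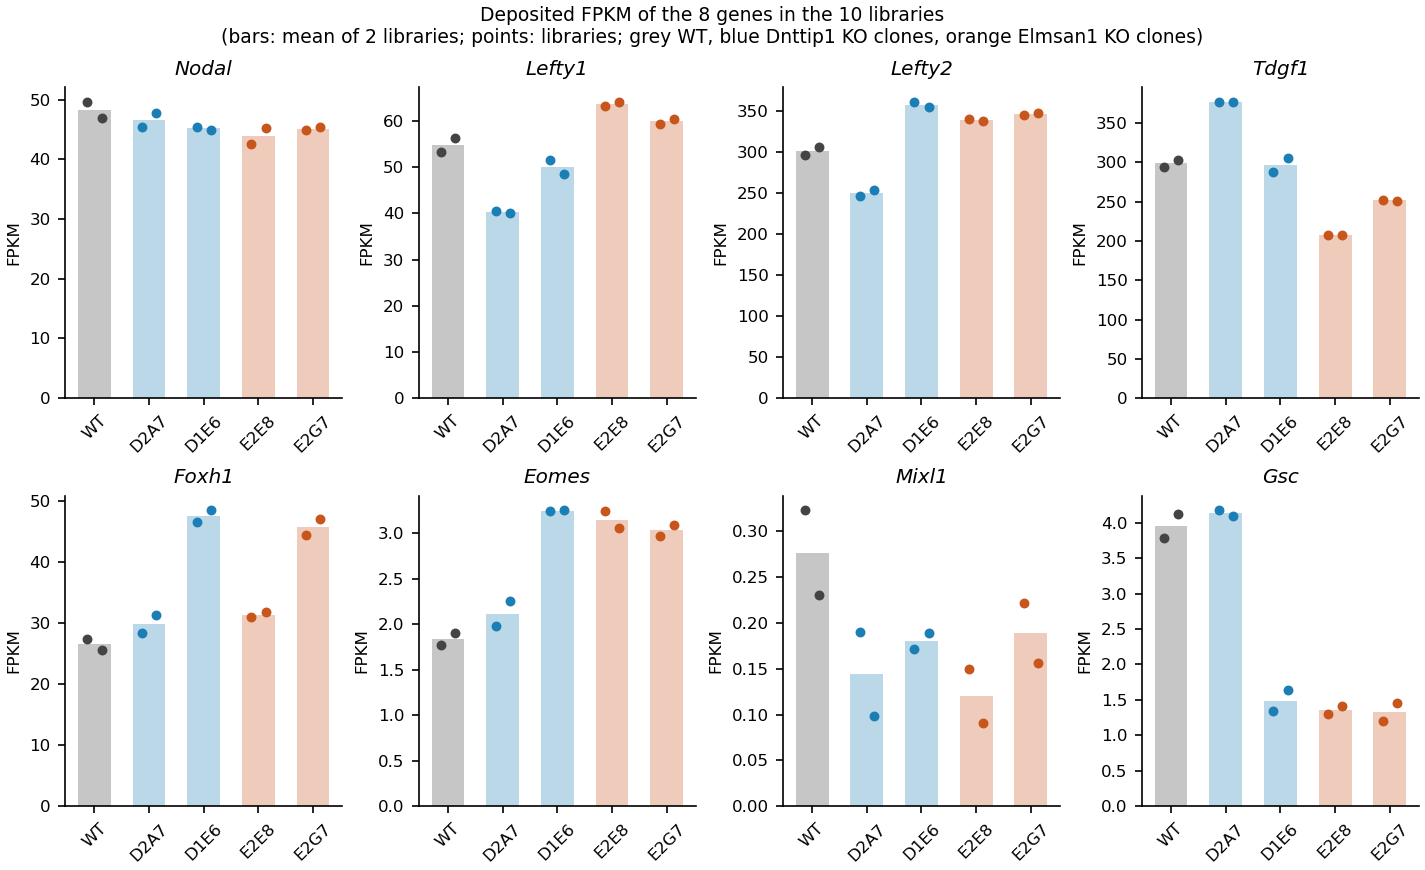
Deposited FPKM (vertical axis, from 0) of each gene in the 5 lines, with the bar at the mean of 2 libraries and a point for each library. Gsc is at 1.21 to 1.64 FPKM in D1E6, E2E8 and E2G7 and at 3.79 to 4.17 in WT and D2A7, and Nodal lies between 42.5 and 49.6 in all 10 libraries.

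The first question was whether the 8 genes changed when either MiDAC subunit was lost. Differences were tested on log2(FPKM + 0.1) with the moderated test of limma, and a gene was called changed at a fold change of at least 1.5 with an unadjusted p under 0.01, the thresholds used in the study. Adjusted p-values are Benjamini-Hochberg values over all genes tested, and fold changes on this scale understate changes of low genes. In Dnttip1 KO against WT, 0 of the 8 genes were called in either direction, where the same rule called 3.26% of 17434 tested genes higher and 3.25% lower. Of the 8, 1 (Lefty1) had an unadjusted p under 0.05 in limma, and voom on fragments recovered from the FPKM also called 0. In Elmsan1 KO against WT, 2 of the 8 were called: Eomes rose and Gsc fell. There the rule called 2.74% of 17212 genes higher and 3.68% lower.

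Gsc encodes goosecoid, a homeodomain repressor of the organizer and the anterior mesendoderm. Its level was 3.79 and 4.13 FPKM in WT, 4.17 and 4.09 in D2A7, 1.34 and 1.64 in D1E6, 1.30 and 1.41 in E2E8, and 1.21 and 1.45 in E2G7. Each clone other than D2A7 was below both WT libraries and these 3 clones overlapped each other, whereas D2A7 overlapped WT. In Elmsan1 KO against WT, Gsc fell by 1.52 on the log2 scale (SE 0.116, 95% interval -1.79 to -1.24, limma adjusted p 0.00255), a level 2.86-fold lower. In Dnttip1 KO the mean change was -0.67 (SE 0.508, limma adjusted p 0.439), with the 2 clones far apart. These values rest on 82 to 328 fragments per library.

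Eomes encodes a T-box factor required for endoderm and for early mesoderm migration. Its level was 1.77 and 1.90 FPKM in WT, 1.98 and 2.26 in D2A7, 3.24 and 3.25 in D1E6, 3.24 and 3.06 in E2E8, and 2.97 and 3.09 in E2G7. All 8 KO libraries were above both WT libraries, with D2A7 the nearest to WT. In Elmsan1 KO the rise was 1.62-fold (log2 0.70, SE 0.0900, 95% interval 0.48 to 0.91, limma adjusted p 0.00905). With a pseudocount of 1 in place of 0.1 the log2 change was 0.51 and no longer reached 1.5-fold. In Dnttip1 KO it was 0.46 (SE 0.225, limma adjusted p 0.244).

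Libraries of 1 clone were correlated (0.768 as estimated by limma in the Elmsan1 KO comparison), and with this correlation in the fit both calls in Elmsan1 KO were kept by the study's thresholds but not after adjustment. Gsc then had an adjusted p of 0.0710 with an estimated correlation, and Eomes an adjusted p of 0.160 with an estimated correlation. Without either of the WT libraries the adjusted p in limma was 0.0518 to 0.0573 for Gsc and 0.0933 to 0.103 for Eomes.

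Mixl1, a paired-type homeodomain gene of the primitive streak, was near the detection limit. It was at 0.322 and 0.230 FPKM in WT, 0.189 and 0.0984 in D2A7, 0.172 and 0.189 in D1E6, 0.150 and 0.0909 in E2E8, and 0.222 and 0.156 in E2G7. Every KO library was below both WT libraries, but each value rests on 12 to 41 fragments. The log2 change was -0.55 (SE 0.247, limma adjusted p 0.216) in Dnttip1 KO and -0.59 (SE 0.266, limma adjusted p 0.207) in Elmsan1 KO.

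The ligand gene Nodal was the most even of the 8 genes. It was at 49.6 and 47.0 FPKM in WT, 45.4 and 47.7 in D2A7, 45.4 and 44.9 in D1E6, 42.5 and 45.3 in E2E8, and 44.9 and 45.4 in E2G7. The highest value was in WT and the lowest in E2E8. WT overlapped D2A7, and the other 3 clones overlapped one another. The log2 change was -0.10 (95% interval -0.24 to 0.04, limma adjusted p 0.321) in Dnttip1 KO and -0.14 (95% interval -0.28 to 0.00310, limma adjusted p 0.187) in Elmsan1 KO.

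The antagonist genes lie side by side in the genome, Lefty2 at chr1:182823239-182829234 and Lefty1 at chr1:182865153-182868531 of NCBIM37, both on the plus strand and 35919 bp apart. Lefty1 was at 53.4 and 56.3 FPKM in WT, 40.5 and 40.2 in D2A7, 51.6 and 48.6 in D1E6, 63.3 and 64.1 in E2E8, and 59.3 and 60.6 in E2G7. All 4 Dnttip1 KO libraries were below WT and all 4 Elmsan1 KO libraries above it. Lefty2 was at 296 and 306 FPKM in WT, 246 and 254 in D2A7, 361 and 355 in D1E6, 340 and 338 in E2E8, and 345 and 347 in E2G7. For Lefty2 only D2A7 was below WT, and the other 3 clones were above it. No Lefty change passed the thresholds: Lefty1 changed by -0.31 (SE 0.114, limma adjusted p 0.146) in Dnttip1 KO and 0.15 (SE 0.0486, limma adjusted p 0.106) in Elmsan1 KO, and Lefty2 by -0.04 (SE 0.182, limma adjusted p 0.920) and 0.16 (SE 0.0497, limma adjusted p 0.0915). Of the 1758 exon bases of Lefty1 and the 2611 of Lefty2, 730 lie in stretches of at least 100 bases that are at least 95% identical to the other gene, though none of these stretches was fully identical, so the split of reads between the genes is uncertain.

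Tdgf1, which encodes the co-receptor, was at 295 and 304 FPKM in WT, 377 and 377 in D2A7, 288 and 306 in D1E6, 207 and 207 in E2E8, and 253 and 251 in E2G7. The Elmsan1 KO libraries were all below WT, D1E6 overlapped WT and D2A7 was above it. In Elmsan1 KO the change was -0.41 (SE 0.110, 95% interval -0.68 to -0.15, p 0.00854 and adjusted p 0.0656 in limma), 1.33-fold lower and short of the fold threshold. In Dnttip1 KO it was 0.13 (SE 0.133, limma adjusted p 0.558). A copy of part of its exons at chr16:3730260-3730909, where no gene is annotated, is at least 97.4% identical over 31.0% of the exon bases and fully identical over 110 bases, so some reads of Tdgf1 cannot be placed with certainty.

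Foxh1, the forkhead partner of the SMADs, was at 27.5 and 25.6 FPKM in WT, 28.3 and 31.3 in D2A7, 46.5 and 48.4 in D1E6, 30.9 and 31.7 in E2E8, and 44.5 and 47.1 in E2G7. High values were in 1 clone of each KO, and the other clone of each lay between 28.3 and 31.7 FPKM. The change over both clones was 0.48 (SE 0.240, limma adjusted p 0.258) in Dnttip1 KO and 0.49 (SE 0.200, limma adjusted p 0.175) in Elmsan1 KO.

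The next question was whether the clones of 1 KO resembled each other, which was tested in a fit of all 10 libraries with a mean for each line. In the Dnttip1 KO, 3 of the 8 genes differed between D2A7 and D1E6, where the rule called 13.8% of 16991 genes. Gsc was 2.69-fold higher in D2A7 (log2 1.43, SE 0.109, limma adjusted p 3.56e-05), Foxh1 was 1.58-fold lower (log2 -0.66, SE 0.0652, limma adjusted p 0.000134) and Eomes was lower as well (log2 -0.59, SE 0.0720, limma adjusted p 0.000405). Eomes stood at the fold threshold, and was not called with a pseudocount of 1 or without the first library of D2A7 or of D1E6. Lefty2 (-0.50) and Tdgf1 (0.36) also had limma adjusted p-values of 1.29e-05 and 9.36e-05 between these clones but did not reach 1.5-fold. In the Elmsan1 KO, 0 of the 8 were called between E2E8 and E2G7, against 13.2% of 16723 genes, although 2 of the 8 (Foxh1 and Tdgf1) had an unadjusted p under 0.05 in limma, and voom also called 0. Foxh1 came nearest, 1.47-fold lower in E2E8 (log2 -0.56, SE 0.0652, limma adjusted p 0.000341), and was called without the first library of E2G7.

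Each clone was then set against WT in the same fit, in which the error is the spread between libraries of a line and does not hold the spread between clones. D2A7 had 0 of the 8 genes called in limma and in voom (limma called 17.1% of 17101 genes), although 5 of the 8 had an unadjusted p under 0.05, among them Lefty1 (log2 -0.46, SE 0.0342, limma adjusted p 2.88e-05) and Tdgf1 (log2 0.31, SE 0.0329, limma adjusted p 0.000164). D1E6 had 3 (11.7% of 16685 genes): Foxh1 rose 1.75-fold (log2 0.81, SE 0.0652), Eomes rose 1.69-fold (log2 0.76, SE 0.0719) and Gsc was 2.62-fold lower (log2 -1.39, SE 0.109), with limma adjusted p-values of 5.05e-05 to 0.000126. E2E8 had 2 (17% of 16895 genes): Eomes rose 1.65-fold and Gsc was 2.84-fold lower, while Tdgf1, 1.47-fold lower (log2 -0.56, SE 0.0328, limma adjusted p 8.84e-06), did not reach the fold threshold. In E2E8 voom also called Mixl1 (log2 -1.20, adjusted p 0.0182), which had a log2 change of -0.79 and a limma adjusted p of 0.0297. E2G7 had 3 (10.7% of 16612 genes): Foxh1 rose 1.70-fold, Eomes rose 1.60-fold and Gsc was 2.88-fold lower. With a pseudocount of 1 Eomes was not called in any of these 3 clones. The 4 comparisons share the WT libraries and are not independent. The plot of the clones against WT shows the interval of each difference.

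**Figure D2:**
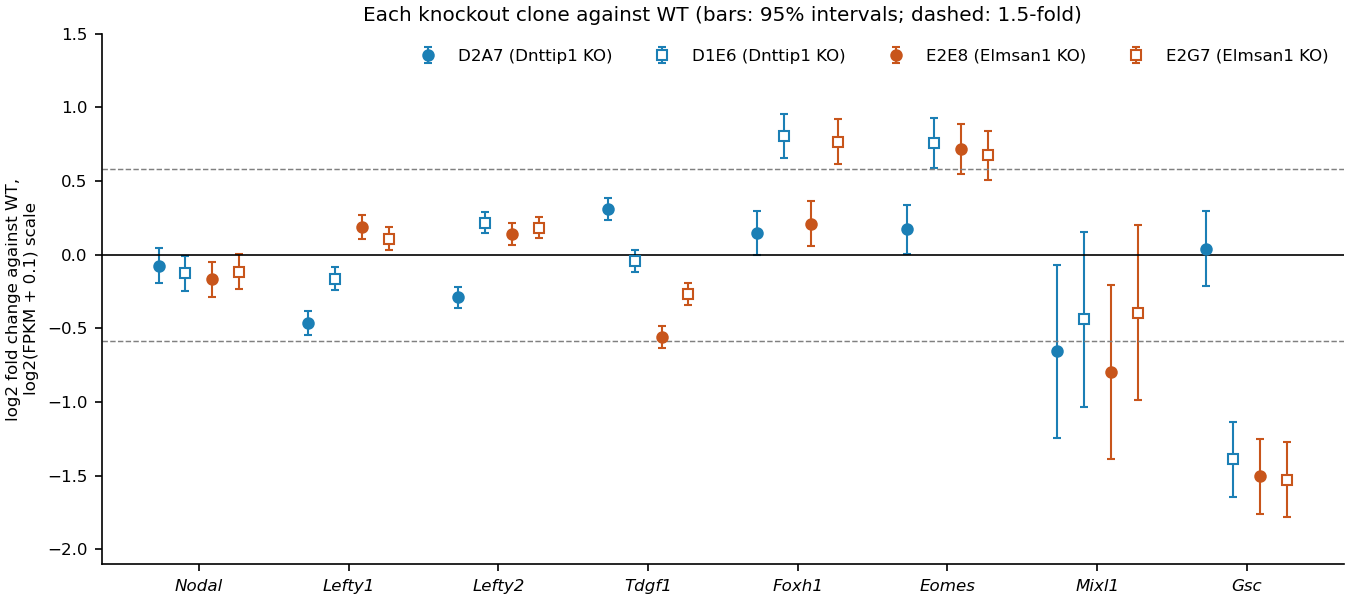
Log2 fold change of each clone against WT on the log2(FPKM + 0.1) scale (vertical axis) for the 8 genes, with 95% intervals from limma and dashed lines at a 1.5-fold change. Gsc lies between -1.53 and -1.39 in D1E6, E2E8 and E2G7 and at 0.04 in D2A7, and Tdgf1 runs from 0.31 in D2A7 to -0.56 in E2E8.

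The 3 clones with low Gsc and high Eomes also shared other differences from WT. The median log2 difference from WT over 542 genes of chromosome 6 was 0.42 in D1E6, 0.39 in E2E8, 0.29 in E2G7 and -0.08 in D2A7, and over 667 genes of chromosome 8 it was 0.35 to 0.37 in all 4 clones. None of the 8 genes is on either chromosome, and the medians of the chromosomes they lie on were within 0.073 of 0. Otx2, a homeodomain gene of the epiblast picked after its values were seen, followed the same split: it was at 10.8 and 11.1 FPKM in WT, 11.4 and 10.6 in D2A7, 2.93 and 2.93 in D1E6, 0.742 and 0.772 in E2E8, and 3.04 and 2.90 in E2G7. The 5 primed epiblast markers, of which Otx2 is 1, summed to 21.8 to 22.0 FPKM in WT, 26.1 to 27.1 in D2A7, 14.1 to 14.4 in D1E6, 4.71 to 5.07 in E2E8 and 16.9 in both libraries of E2G7. Dnmt3b, most of the rest of these sums, was at 10.3 to 10.7 FPKM in WT and 15.3 to 15.4 in D2A7. It was at 10.8 to 11.1 in D1E6, 3.67 to 3.86 in E2E8 and 13.5 to 13.6 in E2G7. The lower sums of D1E6 and E2G7 therefore come from Otx2. The sums of the neural markers, nearly all Tubb3, were highest in D1E6 and E2G7, the clones with high Foxh1. Sox1 was lower in these clones, at 0.282 to 0.313 FPKM against 0.374 and 0.457 in WT. Pax6 was also below WT there, and Neurog2 was at 0.0216 FPKM or less in every library. The sums of the primitive endoderm markers were lowest in D1E6, E2E8 and E2G7. The part of these differences in the levels of Gsc, Eomes and Foxh1 was not tested. In bulk RNA, fewer cells that express a gene and less RNA of it per cell cannot be told apart.

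The direct comparison of Dnttip1 KO with Elmsan1 KO does not use WT. Of the 8 genes, 0 were called in limma and in voom, where limma called 1.52% of 17588 genes, and 3 of the 8 had an unadjusted p under 0.05. Tdgf1 was 1.46-fold higher in Dnttip1 KO (log2 0.55, SE 0.118, p 0.00136, adjusted p 0.263 in limma), with all 4 Dnttip1 KO libraries above all 4 Elmsan1 KO libraries. Lefty1 was 1.38-fold lower (log2 -0.46, SE 0.0850, p 0.000468, adjusted p 0.245 in limma), likewise without overlap. These tests take the libraries of a clone as independent. With the correlation within clones in the fit (0.856 as estimated), the limma p was 0.00294 for Tdgf1 and 0.00286 for Lefty1. The limma adjusted p was then 0.99979 for both. Gsc differed by 0.84 (SE 0.358, limma adjusted p 0.310) and its groups overlapped, since D1E6 was as low as the Elmsan1 KO clones. Tdgf1 was called with quantile normalization (log2 0.59) or without any 1 of the libraries of D1E6 or E2G7 (0.59 to 0.62), and Gsc without the first D1E6 library (1.12).

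The other genes of the pathway were described from a list of 26 genes, of which 22 were measured above the filter of 0.1 FPKM in at least 2 libraries. In Dnttip1 KO 0 rose and 1 fell, where 3.26% and 3.25% of all genes were called higher and lower, and in Elmsan1 KO 1 rose and 2 fell, where 2.74% and 3.68% were. Between the KOs 1 of the 22 was called, Cfc1, a co-receptor gene related to Tdgf1, higher in Dnttip1 KO (log2 1.47, SE 0.425, p 0.00755, limma adjusted p 0.296), where 1.52% of all genes were called. It was not called with the correlation within clones in the fit (p 0.0186, adjusted p 0.99979 with an estimated correlation). The median log2 change of the list was -0.03 in Dnttip1 KO and -0.05 in Elmsan1 KO, against 0.02 and 0.00304 over all genes tested. The ligand genes Gdf1 and Inhba were at 0.0162 FPKM or less, and Gdf3, a Nodal-related ligand, was at 84.3 and 89.8 FPKM in WT and 73.3 to 120 in the clones, with changes of 0.08 (limma adjusted p 0.857) and 0.10 (limma adjusted p 0.544) in Dnttip1 KO and Elmsan1 KO.

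Inhbb, the activin β-B subunit, fell in both, but was called in neither with the correlation within clones in the fit (limma adjusted p 0.228 in Dnttip1 KO and 0.240 in Elmsan1 KO with an estimated correlation). It was at 0.710 and 0.645 FPKM in WT and 0.136 to 0.283 in the 8 KO libraries, with changes of -1.26 (SE 0.181, limma adjusted p 0.0148) in Dnttip1 KO and -1.37 (SE 0.244, limma adjusted p 0.0211) in Elmsan1 KO. Among receptors, the type I receptor gene Acvr1b was at 9.44 and 10.2 FPKM in WT and 13.9 to 17.2 in the clones. It rose in Elmsan1 KO (log2 0.60, SE 0.101, limma adjusted p 0.0178) and differed by 0.55 (SE 0.0549, limma adjusted p 0.00590) in Dnttip1 KO, 1.47-fold and under the threshold. With the correlation within clones in the fit, the limma adjusted p of Acvr1b in Dnttip1 KO was 0.0869. Acvr2b, a type II receptor gene, changed by 0.10 and 0.25 (limma adjusted p 0.531 and 0.106).

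Fst encodes follistatin, a secreted protein that binds activin. It was at 8.54 and 9.28 FPKM in WT, 6.71 and 6.19 in D2A7, 2.66 and 2.81 in D1E6, 2.54 and 2.69 in E2E8, and 2.54 and 2.87 in E2G7. Every KO library was below WT, and D2A7 lay between WT and the other clones. It fell in Elmsan1 KO by 1.73 on the log2 scale (SE 0.0872, limma adjusted p 0.00104), and the clones of Dnttip1 KO differed by 1.22 (SE 0.0703, limma adjusted p 9.87e-06). Among the SMAD genes, Smad2 changed by -0.04 and -0.11 and Smad4 by -0.03 and -0.04 in Dnttip1 KO and Elmsan1 KO (limma adjusted p 0.514 to 0.766). Smad3, Smad7, Tgif1 and Tgif2 are given after their values were seen. Smad3, at 4.99 and 5.38 FPKM in WT and higher in all 8 KO libraries (at most 6.75), changed by 0.25 and 0.29 (limma adjusted p 0.0964 and 0.0547), and Smad7, which encodes an inhibitory SMAD, was at 21.7 and 20.7 FPKM in WT and 14.1 to 16.8 in the clones, a change of -0.46 and -0.53 (limma adjusted p 0.0247 and 0.00878) that did not reach 1.5-fold. With the correlation within clones in the fit, the limma adjusted p of Smad7 was 0.200 in Dnttip1 KO and 0.182 in Elmsan1 KO. Tgif1 was at 42.5 and 45.4 FPKM in WT and 29.0 to 35.1 in the clones. It changed by -0.36 and -0.53 (limma adjusted p 0.0951 and 0.0872 in that fit). Tgif2 was at 11.2 and 11.7 FPKM in WT and 14.4 to 16.8 in the clones. It changed by 0.43 and 0.41 (limma adjusted p 0.178 and 0.262 in that fit). Neither reached 1.5-fold. Skil, which encodes the SMAD co-repressor SnoN, changed by -0.45 (limma adjusted p 0.105) and -0.35 (limma adjusted p 0.102), and Cer1, a secreted Nodal antagonist, was listed at 0 in all 10 libraries.

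**Figure D3:**
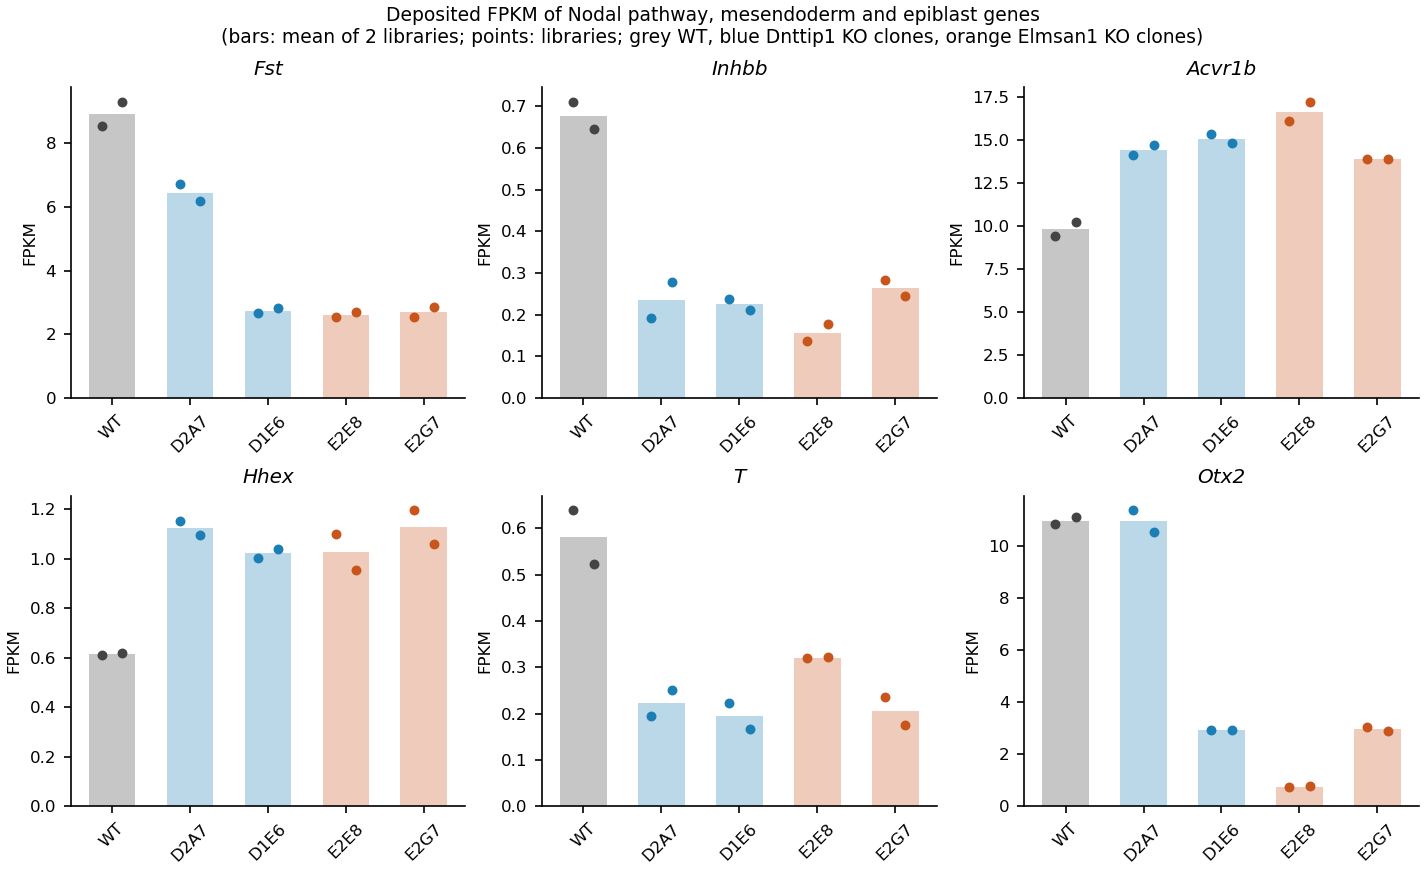
Deposited FPKM (vertical axis, from 0) of 5 genes of the pathway and mesendoderm lists and of Otx2 in the 5 lines, with the bar at the mean of 2 libraries and a point for each library. Inhbb and T are lower and Acvr1b and Hhex higher in all 8 KO libraries than in WT, while Fst and Otx2 are lowest in D1E6, E2E8 and E2G7.

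Of 18 other mesendoderm genes, 10 passed the filter, and in each KO 1 of them rose (Hhex) and 1 fell (T), where 2.74% to 3.68% of all genes were called in a direction. With the correlation within clones in the fit neither was called in either KO (limma adjusted p 0.267 to 0.464 with an estimated correlation). The median log2 change of those tested was 0.16 in Dnttip1 KO and -0.07 in Elmsan1 KO. T (brachyury), the T-box gene of the primitive streak and nascent mesoderm, was at 0.639 and 0.524 FPKM in WT, 0.195 and 0.252 in D2A7, 0.224 and 0.166 in D1E6, 0.319 and 0.322 in E2E8, and 0.236 and 0.175 in E2G7. All 8 KO libraries were below WT. T fell by 1.16 on the log2 scale in Dnttip1 KO (SE 0.198, limma adjusted p 0.0225) and by 0.95 in Elmsan1 KO (SE 0.240, limma adjusted p 0.0571). Hhex, a homeobox gene of anterior endoderm, was at 0.612 and 0.618 FPKM in WT and 0.955 to 1.20 in the clones, and rose by 0.69 (SE 0.125, limma adjusted p 0.0271) and 0.70 (SE 0.143, limma adjusted p 0.0314). Fst and Acvr1b remained called in Elmsan1 KO with that correlation (limma adjusted p 0.0286 and 0.139 with an estimated correlation). T was not called in Dnttip1 KO without the first WT library, nor Hhex without the second, and without either WT library neither was called in Elmsan1 KO. In Elmsan1 KO, T was also not called without either library of E2G7, nor Acvr1b without the first WT library or either library of E2E8, nor Inhbb without the first WT library.

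**Figure D4:**
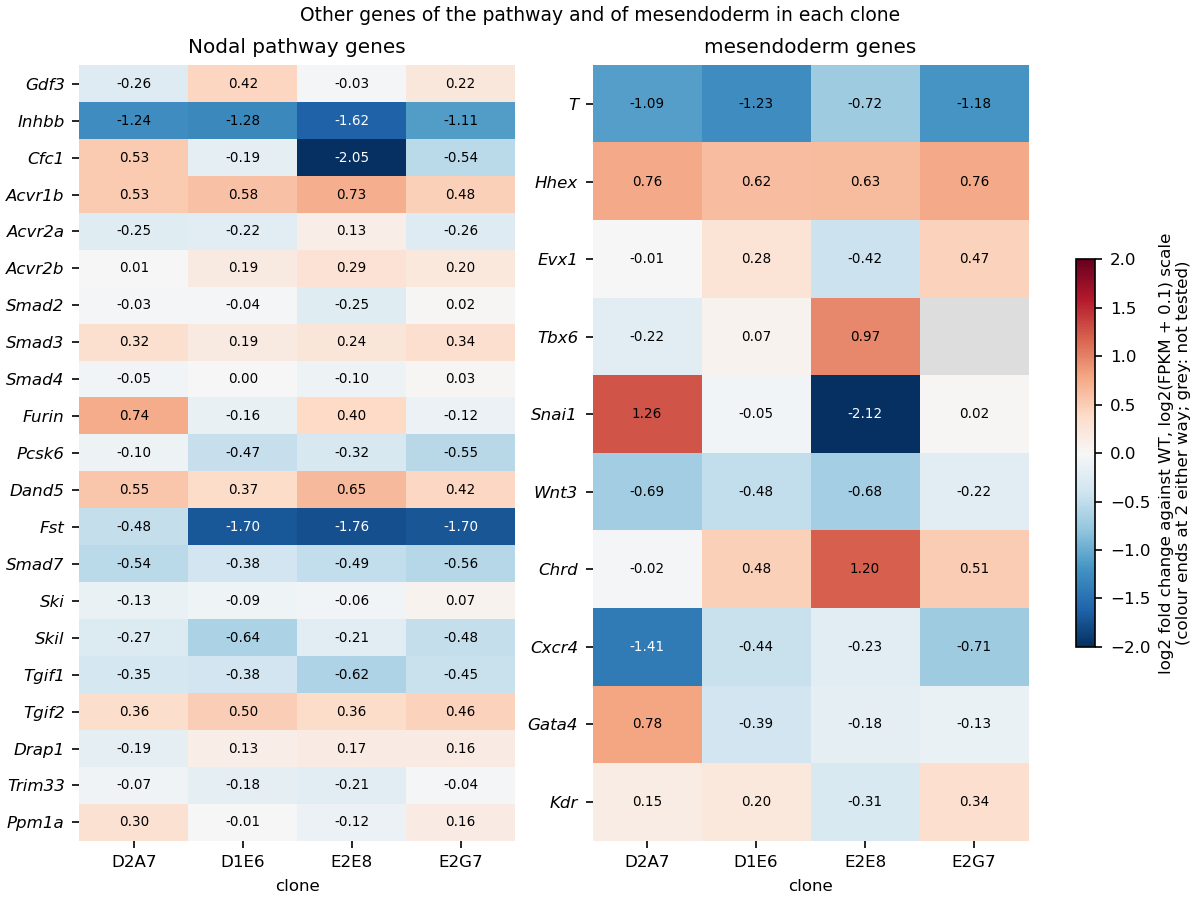
Log2 fold change against WT on the log2(FPKM + 0.1) scale of other pathway genes (left) and mesendoderm genes (right) that passed the filter in at least 1 clone comparison, by clone, with the colour ending at 2 in either direction and grey for a gene not tested. Inhbb runs from -1.62 to -1.11, T from -1.23 to -0.72, and Fst from -1.76 to -0.48, the last in D2A7.

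The genes whose FPKM followed each of the 7 genes above 1 FPKM most closely over the 10 libraries were taken from 12216 genes by Pearson's r. For Gsc they were Zeb1 (r = 0.992) and Slc24a5 (r = 0.990), which was at 9.59 FPKM in WT, 10.9 in D2A7, 1.57 in D1E6, 1.28 in E2E8 and 1.53 in E2G7. For Eomes they were Fpgs (0.991) and Sec24c (0.984), for Foxh1 Fam129b (0.985) and Chd4 (0.984), and for Tdgf1 Igf2bp2 (0.988) and Tbx3 (0.988). Lefty2 was followed by Cecr2 (0.996) and Zhx1 (0.994), Lefty1 by Dnmt3a (0.976) and Ammecr1, and Nodal by Taf4a (0.935) and Zfp710 (0.934). Cecr2 and Chd4 are on chromosome 6, whose median was raised in 3 clones. The libraries of a line share their clone, so these values describe 5 lines more than 10 independent samples. Among these 7 genes the strongest relations were Eomes with Gsc (r = -0.954) and Lefty1 with Tdgf1 (r = -0.920), while Lefty1 with Lefty2 had r = 0.755.

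Genes within 150 kb of the 8 were listed with the difference of each clone from WT. Next to Gsc at chr12:105709419-105711537, Serpina3m, 76952 bp away, was lower in all 4 clones, at a log2 difference of -1.84 in D2A7, where Gsc was level with WT, and of -2.49 in D1E6. Golga4, 20143 bp from Eomes at chr9:118387330-118395250, differed by 0.10 to 0.47. Around the Lefty genes Ephx1 differed by 1.17 in E2E8 and by -0.23 to 0.00500 in the other clones. Tmem63a, 3944 bp from Lefty1, was higher in all 4 clones, by 0.45 to 0.64. Near Foxh1, Slc39a4 differed by 1.03 in D2A7, 0.46 in D1E6, 1.15 in E2E8 and 0.33 in E2G7. These values are given with no test.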

How the data were processed

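Total RNA from 10 libraries of 5 mESC lines was made into stranded libraries and sequenced in paired ends by the authors, who aligned reads to NCBIM37, used HTSeq for counting and deposited FPKM values. The submitters' processing notes also name edgeR 3.16.5, limma and R 3.3.1 for the authors' own tests. Fragment counts were recovered from the deposited FPKM, as 98.3% to 98.6% of low values per library were within 0.05 of a whole multiple of 1 fragment. Gene positions were those of GENCODE vM1, which is also on NCBIM37 and may differ from the authors' annotation.

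FPKM was scaled by the median ratio over genes, log2(FPKM + 0.1) was taken, and limma 3.58.1 in R 4.3.3 was fitted with a variance trend to the genes that reached 0.1 FPKM in 2 or more of the libraries compared. Dnttip1 KO and Elmsan1 KO (4 libraries each) were compared with WT (2 libraries) and with each other, and the clones in 1 fit of all libraries. The model was tested on simulated data with 200 changed genes. Exon copies were searched with blastn 2.17.0. No column was left out.

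Alternatives were other pseudocounts, filters, scalings and thresholds, a replicate block, the correlation within clones, leaving out each library, and, added after seeing the data, voom on recovered fragments. Same-numbered libraries of the lines correlated at -0.139 to 0.192 in their deviations over 12215 genes, so the numbers were not taken to pair them. The 8 genes and the lists were chosen with earlier results of these data known. Named were the 8 genes, called list genes, further pathway genes whatever their values (Gdf3, Acvr1b, Acvr2b, Smad2, Smad4, Cer1, Skil and T, with 1 more that is not reported here) and the 2 genes most like each of the 8 above 1 FPKM.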

Additional observations from a re-analysis of the deposited data

Results flagged for a closer look

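Among the 4 Elmsan1 KO libraries, 1 value of Nodal stood apart: the first E2E8 library was at 42.5 FPKM and the other 3 between 44.9 and 45.4, a gap of 0.844 of the whole range after scaling. A gap of this kind is expected in about 1 in 20 groups of this size if the values are independent, and these libraries come from 2 clones. Each of the 8 genes was searched for such a gap in each KO, and this was the only value flagged. The clones of Dnttip1 KO differed in 3 of the 8 genes by a test of the difference itself in limma, with D2A7 minus D1E6 at 1.43 on the log2 scale for Gsc, -0.66 for Foxh1 and -0.59 for Eomes.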

How the results depend on the processing

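Values were followed under each alternative for the 8 genes in each KO against WT and for the genes called in a clone comparison. Of these, 442 kept their direction and their side of the thresholds, 7 (all of Eomes) fell short of a threshold and 2 reversed. The reversed value was Lefty2 in Dnttip1 KO against WT, -0.04 with all libraries and -0.13 to 0.0551 on the log2 scale without each library in turn. With a pseudocount of 1, 1 of the 8 genes was called in Elmsan1 KO and 1 in E2E8 (2 each before), 2 in D1E6 and 2 in E2G7 (3 each before), the pathway list had 0 calls in Dnttip1 KO and 1 in Elmsan1 KO (1 and 3 before), and the mesendoderm list 0 in each (2 before). Restricted to genes averaging 1 FPKM or more, the mesendoderm list had 0 calls in each KO and the pathway list 0 in Dnttip1 KO. Hhex, T and Inhbb average less than that and were not tested in this setting, so their calls could not be kept. With the correlation within clones these genes were tested, and the same counts were 0. With no filter, with an adjusted p under 0.05 or with the replicate block, the mesendoderm list had 1 call in Elmsan1 KO. The replicate block changed no call of the 8 genes between KO and WT: the changes of Gsc (-1.52) and Eomes (0.70) in Elmsan1 KO then had limma adjusted p-values of 0.0164 and 0.0424. Mixl1 in E2E8 was called with the replicate block, at an adjusted p under 0.05 and by voom. Quantile normalization gave 1 call of the 8 between the KOs (Tdgf1). It also gave 3 calls of the mesendoderm list in Elmsan1 KO (2 before). The added gene was Chrd (log2 0.87, limma adjusted p 0.0453). Without each library in turn the calls ranged from 1 to 2 for either list in Dnttip1 KO, 0 to 2 for the mesendoderm list in Elmsan1 KO, 0 to 2 of the 8 between the KOs (Tdgf1 and Gsc), and 0 to 1 between the Elmsan1 KO clones (Foxh1). The cause of these changes was not tested.

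Over all genes, the calls were 1135 in Dnttip1 KO, 1106 in Elmsan1 KO and 268 between the KOs. With a pseudocount of 1 they were 540, 525 and 79, at a mean of at least 1 FPKM 664, 603 and 112, and with the correlation within clones 538, 486 and 54. Without a WT library they were 599 and 688 in Dnttip1 KO and 622 and 682 in Elmsan1 KO. Between the KOs they were 151 with no filter, 4 at an adjusted p under 0.05, 171 with the replicate block, 459 and 507 without a D1E6 library, and 105 to 127 without a library of D2A7 or E2E8. Between clones and for each clone against WT, 1772 to 2919 genes were called, 709 to 1324 with a pseudocount of 1 and 946 to 1612 at a mean of at least 1 FPKM. Mixl1 rests on 12 to 41 fragments per library.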
